A study of Mus musculus with 72 samples.

Results

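The mitosis genes described here are 48 mouse genes whose products carry a cell from entry into mitosis to the separation of its daughters. They were chosen by gene name, and all 48 were found under their current names among the 31131 named genes of the array. By role they are 6 genes of mitotic entry, 3 genes of the kinases at the spindle poles, 4 of the chromosomal passenger complex, 10 of the kinetochore and its checkpoint, 6 of the spindle and its motors, 6 of chromosome condensation, 6 of mitotic exit and 7 of cytokinesis. Of these, 36 could be tested, because 11 missed the filter on dim spots and Kif23 varied too little. The filter on variation keeps genes that differ somewhere, so every count over the 36 is a description. The main count of each comparison stands beside the same share of the 10863 genes that passed the same filters.

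Blood RNA was measured on 72 one-colour arrays, each with the globin-reduced RNA of 1 mouse. The mice were C57BL/6 males irradiated at 8 to 10 weeks of age with 0.25 or 1 Gy of neutrons or with 1 or 4 Gy of x-rays, and the controls were sham-irradiated. The neutron beam also delivered a smaller dose of γ rays, and the mice on the neutron wheel and the sham controls were kept in holders. Groups held 5 mice for the controls of days 1 and 3, 0.25 Gy of neutrons at day 7, 1 Gy of x-rays at days 3 and 7 and 4 Gy of x-rays at day 1, and 6 mice otherwise. Day 3 has controls, 0.25 Gy of neutrons and 1 Gy of x-rays only.

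Cyclin B and the kinase Cdk1 start mitosis once the phosphatase Cdc25 has removed an inhibitory phosphate, condensins compact the chromosomes, and kinetochores tie them to the spindle under a checkpoint that holds the anaphase-promoting complex in check. That complex, a ubiquitin ligase, then works first with Cdc20 and later with Fzr1 to destroy cyclins and securin, and the cell divides. In dividing cells most of these genes are transcribed together, late in the cycle. Circulating leukocytes seldom divide, while young red cells leave the marrow soon after their last divisions and still carry RNA, so whole blood holds few mitotic cells. In whole blood, fewer cells of a type and less RNA per cell cannot be told apart.

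Promoters of mitosis genes are known for 2 short elements, the CHR (TTTGAA or TTCGAA), bound by the DREAM complex in resting cells, and the CCAAT box, bound by NF-Y. RefSeq sequence (GRCm38.p6) from 250 bases before to 50 after the start site was at hand for 40 of the 48 genes. On either strand the CHR letters occurred in 31 of these 40 windows (77.5%) against 21.7% of the windows of 27025 genes, and CCAAT in 30 of 40 against 41.1%. Both were found in 67.5% of the members and in 8.61% of all genes. The 100 bases before the start site are shown for 6 members whose levels in blood went different ways, with CHR and CCAAT letters in capitals on whichever strand they lie (ATTGG is CCAAT, and TTCAAA is TTTGAA, on the other strand).
Cdk1, chr10:69352913-69353012, minus strand: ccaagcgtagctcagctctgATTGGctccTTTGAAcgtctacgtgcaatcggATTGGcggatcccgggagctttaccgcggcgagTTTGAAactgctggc
Cdc20, chr4:118437344-118437443, minus strand: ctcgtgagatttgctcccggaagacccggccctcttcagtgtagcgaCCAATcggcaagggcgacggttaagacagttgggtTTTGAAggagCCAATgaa
Ube2c, chr2:164769829-164769928, plus strand: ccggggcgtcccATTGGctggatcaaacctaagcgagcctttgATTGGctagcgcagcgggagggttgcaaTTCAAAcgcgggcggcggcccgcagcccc
Cdc25b, chr2:131186848-131186947, plus strand: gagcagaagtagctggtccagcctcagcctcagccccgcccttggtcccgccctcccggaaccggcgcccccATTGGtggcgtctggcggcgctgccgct
Nusap1, chr2:119618198-119618297, plus strand: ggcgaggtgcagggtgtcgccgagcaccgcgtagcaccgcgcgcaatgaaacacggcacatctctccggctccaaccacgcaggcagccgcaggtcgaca
Fzr1, chr10:81378371-81378470, minus strand: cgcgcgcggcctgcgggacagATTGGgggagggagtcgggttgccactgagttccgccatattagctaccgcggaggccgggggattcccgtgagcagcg

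Cdk1 held TTTGAA at -71 and -15 from its start site, Cdc20 at -18 and Ube2c at -29 on the other strand. Cdc25b held TTCGAA at 8 bases past the start, outside the stretch shown. Fzr1 had a CCAAT box only, and Nusap1 neither element. A match of letters is a description, not a bound site.

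Levels are given as log2 of the background-corrected intensity minus the median of the detected probes of the same array, so a step of 1 is 2-fold, and no level of one probe can be set against that of another. The mean over the 36 tested members was -0.69 to -0.44 in the day 1 controls and -0.14 to 0.58 in the day 7 controls, which did not overlap, so each exposure was compared with the controls of its own day. A gene was called when limma gave p below 0.001 and a Benjamini-Hochberg adjusted p below 0.05 over all genes, and "rose" and "fell" are used of called genes only. Differences are log2 fold changes ± standard error. They are relative to the median detected probe. With the arrays centred on 6 spike-in probes instead, the median difference over all genes after 1 Gy of neutrons at day 7 went from 0.31 to -2.11, and after 1 Gy of neutrons at day 1 from 0.05 to 0.42.

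**Figure D1:**
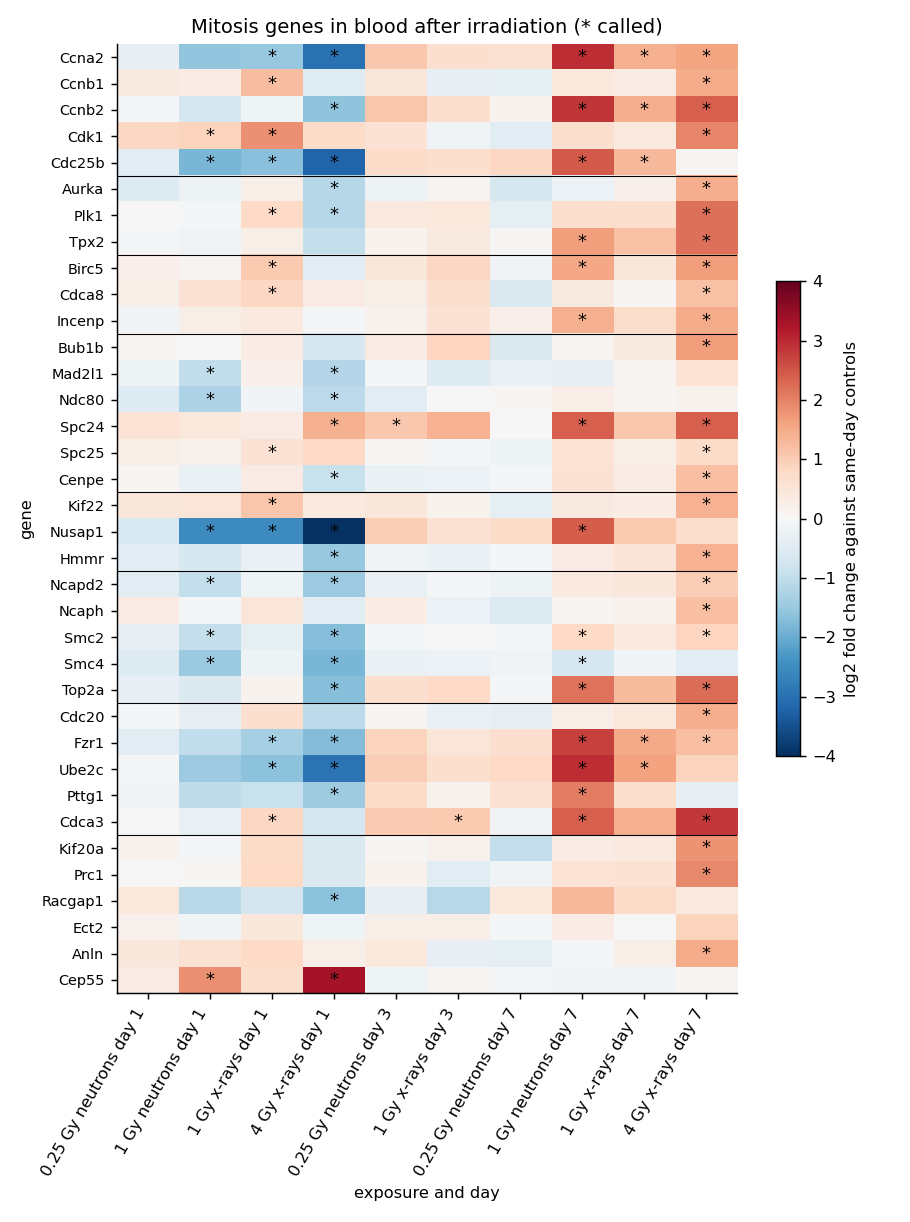
Log2 fold change of each of the 36 tested members (lines, by role) against the controls of the same day in the 10 comparisons (columns), in colour from lower to higher, with called values marked. In the 4 Gy column of day 1 most called members are lower and at day 7 all are higher, while the 1 Gy neutron column of day 7 would hold 16 lower and 0 higher calls with spike-in centring.

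Levels of the mitosis genes went in both directions at day 1 after 1 Gy of neutrons. Of the 36 tested members 2 rose and 7 fell, which is 25%, beside 17.5% of all genes (6.96% higher and 10.5% lower), and the median was -0.24 against 0.05 over all genes. Nusap1, a microtubule-bundling protein of the spindle, fell most. Its levels were 3.54, 3.61, 3.55, 4.20 and 4.21 in the 5 controls and 0.06 to 2.67 (median 1.03) in the 6 irradiated mice, without overlap, a difference of -2.55 ± 0.43 (adjusted p = 0.00124). The condensation genes Smc4 (-1.50 ± 0.23), Smc2 (-0.96 ± 0.20) and Ncapd2 (-0.95 ± 0.16) fell, 3 of the 5 tested in that role. So did the kinetochore gene Ndc80 (-1.24 ± 0.19), the checkpoint gene Mad2l1 (-0.98 ± 0.22) and Cdc25b (-1.83 ± 0.39). Cep55, which recruits the abscission machinery to the midbody, and Cdk1 went against the rest, by 1.83 ± 0.31 and 0.90 ± 0.19. On the only scan day that holds both groups (4 irradiated and 5 control mice) 1 member rose and 4 fell. With spike-in centring 3 were higher and 3 lower and the median turned to 0.28, against 0.42 over all genes. With normexp background correction Cep55 was at 0.48 and Cdk1 at -0.0013, neither called. In the same comparison all 10 B-cell genes fell (median -2.77), as did 5 of 12 T-cell genes, and 3 of 9 mature neutrophil genes (median 1.01) rose. Their part in the change of the members was not tested.

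After 1 Gy of x-rays at day 1 the members split. Of 36 tested, 8 rose and 5 fell, 36.1% beside 7.65% of all genes (3.09% higher and 4.56% lower), and the median was 0.31 against -0.01 over all genes. Cdk1 rose most. It stood at -4.01, -4.08, -3.82, -3.55 and -4.03 in the controls and at -2.45 to -1.51 (median -2.19) in the irradiated mice, 1.84 ± 0.20 higher (adjusted p = 0.00111) with no overlap. Ccnb1, the cyclin partner of Cdk1 (1.22 ± 0.18), Kif22, a chromosome-arm motor (1.10 ± 0.15), the passenger genes Birc5 (1.06 ± 0.16) and Cdca8 (0.81 ± 0.16), Cdca3 (0.84 ± 0.16), the kinase Plk1 (0.79 ± 0.16) and the kinetochore gene Spc25 (0.57 ± 0.13) were the other 7 that rose. For Birc5 a dimmer probe differed by 0.11 ± 0.21 only and another by 0.77 ± 0.17.

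The 5 that fell after 1 Gy of x-rays were the 5 mitosis genes that the study itself singled out. The study chose them on these samples, so their directions are not independent evidence. They were Nusap1 (-2.55 ± 0.31), Cdc25b (-1.67 ± 0.33), Ube2c, the ubiquitin-conjugating enzyme of the anaphase-promoting complex (-1.63 ± 0.35), Ccna2 (-1.52 ± 0.28) and Fzr1, the late activator of that complex (-1.33 ± 0.21). Pttg1 was not called, although a dimmer probe for it differed by -1.11 ± 0.25. Ube2c was at 5.07, 5.51, 5.26, 5.87 and 6.12 in the controls and at 3.06 to 4.98 (median 3.91) after x-rays, without overlap. With scan day as a random block none of the 36 was called, and with normexp background correction 1 member was called, lower. On the spike-in scale 4 rose and 5 fell.

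A broad fall followed 4 Gy of x-rays at day 1. Of the 36 tested members 18 fell and 2 rose, 55.6% beside 35.1% of all genes (16.5% higher and 18.6% lower), with a median of -0.98 against 0.00 over all genes. The 36 members averaged -1.13, -1.71, -1.76, -1.29 and -1.30 per mouse, below every control. By role, 4 of 5 condensation genes, 3 of 5 entry genes, 3 of 5 exit genes, 3 of 6 kinetochore genes, 2 of 3 pole kinase genes, 2 of 3 spindle genes and 1 of 6 cytokinesis genes fell, and none of the 3 passenger genes was called. For the passenger gene Birc5 a dimmer probe differed by -1.43 ± 0.30 and another by -0.79 ± 0.27, so its result depends on the probe. Other lists differed between the same groups. All 10 B-cell genes and 14 of 23 erythroid genes fell, and the mean level of 27 hepatocyte genes, of which 12 could be tested and 4 rose, was 7.46, 8.13, 7.91, 6.98 and 7.12 after 4 Gy against 4.08, -1.01, 4.97, 6.17 and -0.13 in the controls. With the hepatocyte level as a covariate 1 member rose and 6 fell, at a median of -0.89, and Nusap1 was at -4.03 (SE 0.55) and Ccna2 at -2.85 (SE 0.56, from 0.36). With normexp 7 fell and none rose, at a median near 0 (-0.0012, against 0.23 over all genes). With the mean level of the erythroid genes as a covariate, a fit added after the data were seen, 1 member fell and none rose. The median was then -0.32 against 0.25 over all genes. That level did not overlap between the groups, so the covariate ran with the exposure in part. The part of these cells in the fall of the mitosis genes was not tested beyond these covariates.

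The largest fall at day 1 after 4 Gy was again that of Nusap1, at 0.20, -0.88, -1.41, 0.54 and -0.23 in the irradiated mice, 4.18 below the controls on the log2 scale (-4.18 ± 0.35, adjusted p = 5.94e-06). Cdc25b (-3.22 ± 0.33), Ccna2 (-3.00 ± 0.36) and Ube2c (-2.96 ± 0.40) followed. The condensation genes Smc4 (-1.81 ± 0.25), Smc2 (-1.72 ± 0.21), Top2a, the topoisomerase that untangles chromosomes (-1.70 ± 0.35), and Ncapd2 (-1.45 ± 0.20) fell by similar amounts. Plk1 was at -2.23, -2.98, -3.29, -2.58 and -2.05 against -1.73 to -1.37 in the controls, a fall (-1.15 ± 0.25). Cep55 rose by 3.32 ± 0.37 (adjusted p = 3.55e-05). Its levels were -4.14, -3.77, -3.84, -3.19 and -3.74 in the controls and -0.53, 0.09, 0.24, -0.03 and -1.87 after 4 Gy, so the groups lay well apart. Spc24, a subunit of the kinetochore complex with Ndc80, rose by 1.42 ± 0.32, with an overlap of the groups.

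**Figure D2:**
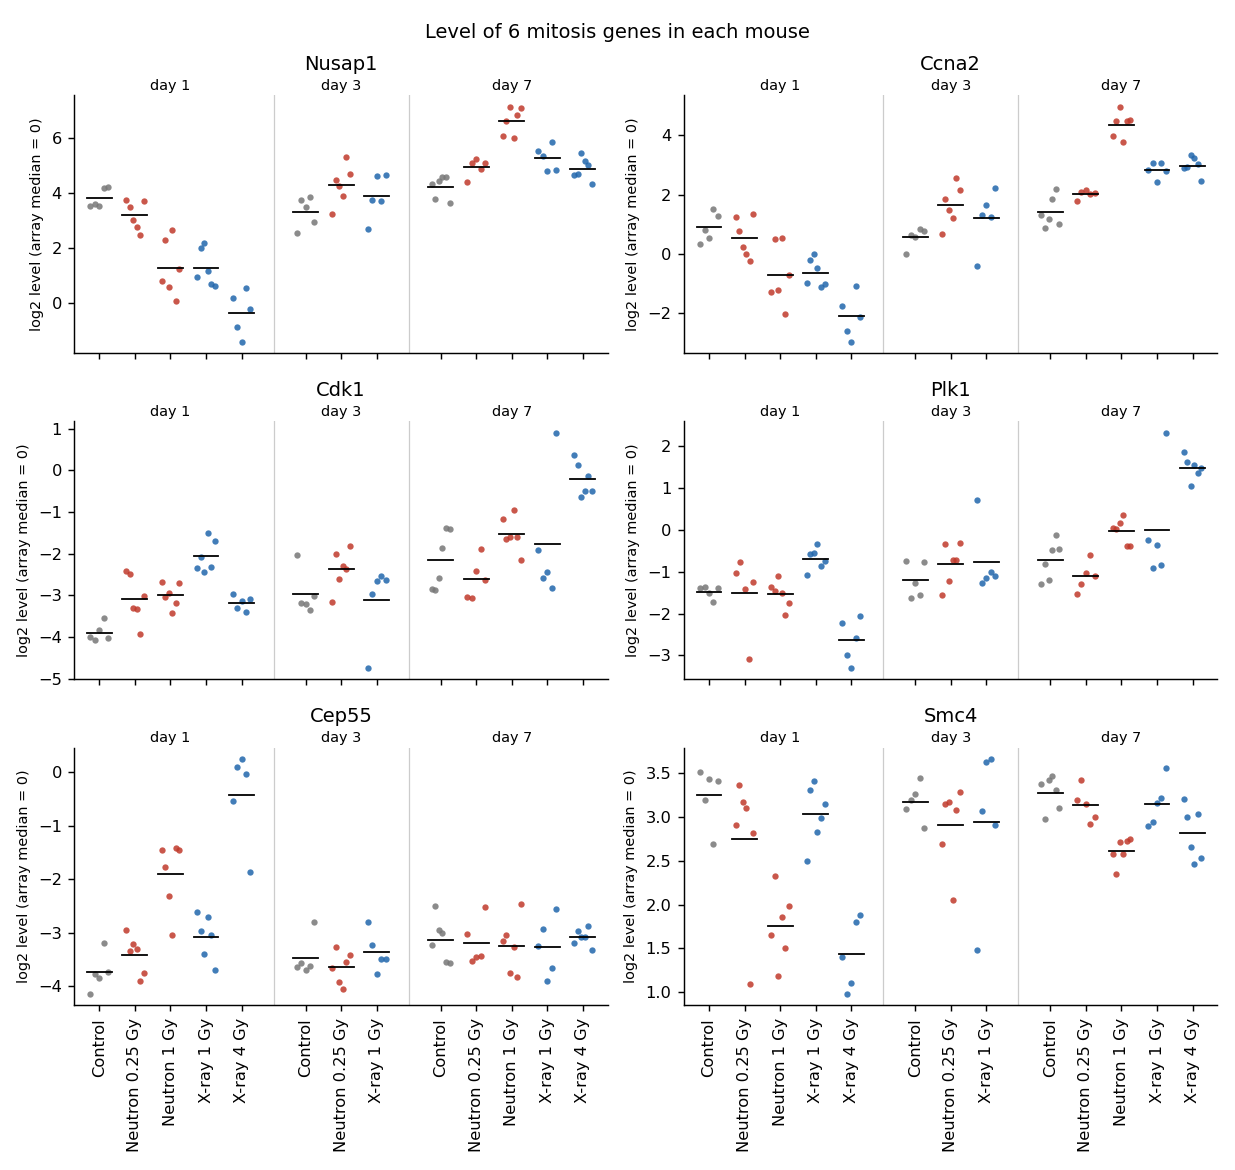
Log2 level of Nusap1, Ccna2, Cdk1, Plk1, Cep55 and Smc4 (vertical axes) in every mouse by exposure and day, with controls in grey, neutrons in red, x-rays in blue and the group mean as a black line. Nusap1 is lowest after 4 Gy of x-rays at day 1 (-1.41 to 0.54), Cep55 is high there only among the x-ray groups, and 1 mouse stands apart after 1 Gy of x-rays at day 7 for Cdk1 (0.89) and Plk1 (2.31).

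Little was called at the lower neutron dose and at day 3. After 0.25 Gy of neutrons at day 1 limma and the random variance test called 0 of 36 members, with 2 at an unadjusted p below 0.05, beside 0.00921% of all genes called. At day 7 both tests again called 0, with 11 at an unadjusted p below 0.05, beside 0.0276% of all genes. At day 3 after 0.25 Gy of neutrons Spc24 alone rose (1 of 36 beside 1.17% of all genes, 0.543% higher and 0.626% lower). It was at -3.21, -3.26, -3.19, -3.24 and -2.95 in the controls and at -2.44 to -1.44 (median -2.25) after neutrons, 1.08 ± 0.20 higher (adjusted p = 0.0492) without overlap. At day 3 after 1 Gy of x-rays Cdca3, which helps to bring about the destruction of a mitosis inhibitor, alone rose (1 of 36 beside 2.00% of all genes, 1.58% higher and 0.414% lower), at 0.11, 0.58, 0.23, 0.60 and 0.73 against -0.02, -0.89, -0.68, -0.71 and -0.74 in the controls (1.06 ± 0.22, adjusted p = 0.0461). Each of these day 3 calls was lost when any of several single mice was left out and under most other settings.

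By day 7 after 1 Gy of neutrons 14 members had risen and 1 had fallen, 41.7% beside 38.4% of all genes (25.1% higher and 13.3% lower), a share near the background, with a median of 0.57 against 0.31 over all genes. On the spike-in scale the split turned, to 0 higher and 16 lower with a median of -1.49 against -2.11 over all genes, although the 5 genes of the study stayed above 0 without being called (Ccna2 0.92, Ube2c 0.90, Fzr1 0.69, Cdc25b 0.41 and Nusap1 0.37). The irradiated arrays were dimmer, with 40.2% to 50.3% of spots well above background against 54.3% to 63.9% in the controls. The part of this in the counts was not tested. Ccna2, the S-phase and mitotic cyclin A2, rose most. Its controls lay between 0.87 and 2.19 (median 1.24) and the irradiated mice between 3.76 and 4.95 (median 4.47), without overlap, 2.95 ± 0.26 apart (adjusted p = 1.51e-06). Ube2c (2.94 ± 0.23), Ccnb2 (2.86 ± 0.25), Fzr1 (2.73 ± 0.24), Cdc25b (2.45 ± 0.24), Nusap1 (2.41 ± 0.25), Cdca3 (2.40 ± 0.28) and Spc24 (2.39 ± 0.27) rose by nearly as much. Exit (4 of 5 tested) and entry (3 of 5) were the roles with most rises by number. Of the 3 passenger genes tested 2 rose, and none of the 6 cytokinesis genes was called. Smc4, a core condensin subunit, fell by 0.66 ± 0.15. It was at 2.98 to 3.47 (median 3.34) in the controls and 2.35 to 2.75 (median 2.65) after neutrons, while its partner Smc2 rose by 0.78 ± 0.14. With scan day as a block 5 members were called, all higher, but only 1 scan day held both groups, with 1 irradiated and 6 control mice.

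Members that rose after 1 Gy of x-rays at day 7 were Ube2c (1.60 ± 0.24), Fzr1 (1.51 ± 0.23), Ccnb2 (1.46 ± 0.26), Ccna2 (1.44 ± 0.25) and Cdc25b (1.29 ± 0.27), 5 of 36 or 13.9% beside 4.00% of all genes (3.29% higher and 0.709% lower), and none fell. Ube2c was at 7.52, 7.40, 6.87, 7.53 and 6.56 in the irradiated mice and at 5.03 to 6.02 (median 5.62) in the controls, without overlap (adjusted p = 0.00322). On the spike-in scale none was called. Mouse 5 of this group stood apart for other members. The mean over the 36 was 0.62, 0.44, 0.32, 0.41 and 2.05 in the 5 mice. In mouse 5 Cdc20 was at 2.62 against -0.32 to 0.16 in the other 4, and Cdk1 at 0.89 against -2.83 to -1.92. Its erythroid list level was 3.28, the lowest of the 5, and its hepatocyte list level 4.48, the highest.

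Day 7 after 4 Gy of x-rays brought the broadest rise, with 26 of the 36 tested members higher and none lower, 72.2% beside 17.6% of all genes (9.06% higher and 8.50% lower), and a median of 1.38 against -0.04 over all genes. The mean over the 36 was 1.14 to 1.57 in the irradiated mice and -0.14 to 0.58 in the controls, without overlap. All 3 pole kinase genes and all 3 passenger genes tested rose, as did 4 of 5 entry, 4 of 6 kinetochore, 4 of 5 condensation, 3 of 5 exit, 2 of 3 spindle and 3 of 6 cytokinesis genes. For the passenger gene Cdca8 a dimmer probe differed by 0.49 ± 0.17 only. Cdca3 rose most, by 2.84 ± 0.22 (adjusted p = 1.56e-06), from -0.88 to 0.40 (median -0.25) in the controls to 2.12 to 2.78 (median 2.61).

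Spc24 (2.39 ± 0.22), Ccnb2 (2.38 ± 0.18), Top2a (2.23 ± 0.22), Plk1 (2.21 ± 0.22), Tpx2, which activates Aurora A on the spindle (2.19 ± 0.19), Cdk1 (1.95 ± 0.31), Prc1, which bundles the microtubules of the midzone (1.93 ± 0.23), and the midzone motor Kif20a (1.81 ± 0.25) rose after 4 Gy of x-rays at day 7. Plk1 went from -1.30 to -0.13 (median -0.65) in the controls to 1.04 to 1.85 (median 1.51), and Cdk1 from -2.86 to -1.39 (median -2.23) to -0.64 to 0.37 (median -0.31), neither with an overlap. Values of some members that were not called lay near 0, among them Cdc25b (0.06), Cep55 (0.05) and Ndc80 (0.16), and Pttg1, the securin, differed by -0.33. A dimmer Pttg1 probe differed by 0.85 ± 0.22, so its direction depends on the probe. On the spike-in scale 24 members were higher and none lower, and with normexp 6 were higher (median 0.91). All 10 B-cell genes fell in the same comparison (median -2.87), 5 of 8 NK-cell genes (median 0.96), 3 of 8 monocyte genes, 2 of 6 neutrophil precursor genes, 2 of 9 mature neutrophil genes and 10 of 23 erythroid genes rose, beside 9.06% of all genes higher and 8.50% lower. With the mean level of the erythroid genes as a covariate 13 members rose and 1 fell. The part of these cells was not tested beyond that. The 4 Gy x-ray mice and the controls of day 7 were scanned on different days, so scan day and exposure cannot be told apart. No x-ray group of any day shared a scan day with its controls, and the other x-ray groups, each scanned on 2 days, could be fitted with scan day only as a random block.

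Members called on both days went mostly from lower to higher. After 1 Gy of neutrons 4 members were called on both days, of which Cdc25b, Nusap1 and Smc2 fell and then rose and Smc4 fell on both. The 4 are 11.1% of the 36 beside 7.51% of all genes called on both days, and the 3 are 8.33% beside 1.43% that fell and then rose. After 1 Gy of x-rays Ccna2, Cdc25b, Fzr1 and Ube2c fell and then rose (11.1% beside 0.967%). After 4 Gy of x-rays 11 members were called on both days, of which Aurka, Ccna2, Ccnb2, Cenpe, Fzr1, Hmmr, Ncapd2, Plk1, Smc2 and Top2a fell and then rose (27.8% beside 1.06%) and Spc24 rose on both. Among those not given above, Ccnb2 went from -1.61 at day 1 to 2.38 at day 7, Hmmr from -1.52 to 1.39, Ncapd2 from -1.45 to 0.97, Aurka from -1.15 to 1.46, Cenpe, a kinetochore motor, from -0.88 to 1.20 and Smc2 from -1.72 to 0.85. Under spike-in centring no member was called higher at day 7 after either 1 Gy exposure, while 24 were after 4 Gy of x-rays. Scan day as a random block left no member called at day 1 after 1 Gy of x-rays.

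The change of effect between the days was tested itself, with positive values for a higher effect at day 7. With 1 Gy of neutrons it was called in 18 members, 17 upward and 1 downward, 50% beside 28.7% of all genes (21.4% upward and 7.24% downward). With 1 Gy of x-rays it was called in 7, all upward, 19.4% beside 8.68% (6.83% upward and 1.85% downward). With 4 Gy of x-rays it was called in 28, 27 upward and 1 downward, 77.8% beside 22.4% (12.4% upward and 9.94% downward). With 0.25 Gy of neutrons limma and the random variance test called 0, with 11 at an unadjusted p below 0.05, beside 1.32% of all genes (1.23% upward and 0.0829% downward). On the spike-in scale the split after 1 Gy of neutrons turned to 4 upward and 15 downward. Nusap1 had the largest change in each of the 3 higher exposures, 4.96 ± 0.51 after 1 Gy of neutrons, 3.61 ± 0.41 after 1 Gy of x-rays and 4.85 ± 0.42 after 4 Gy of x-rays. Cep55 was the member called downward, by -1.95 ± 0.41 after neutrons and -3.27 ± 0.41 after 4 Gy of x-rays. None of the 6 neutron arrays of day 7 showed Cep55 well above background, so the first of these values is set against a group at background.

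**Figure D3:**
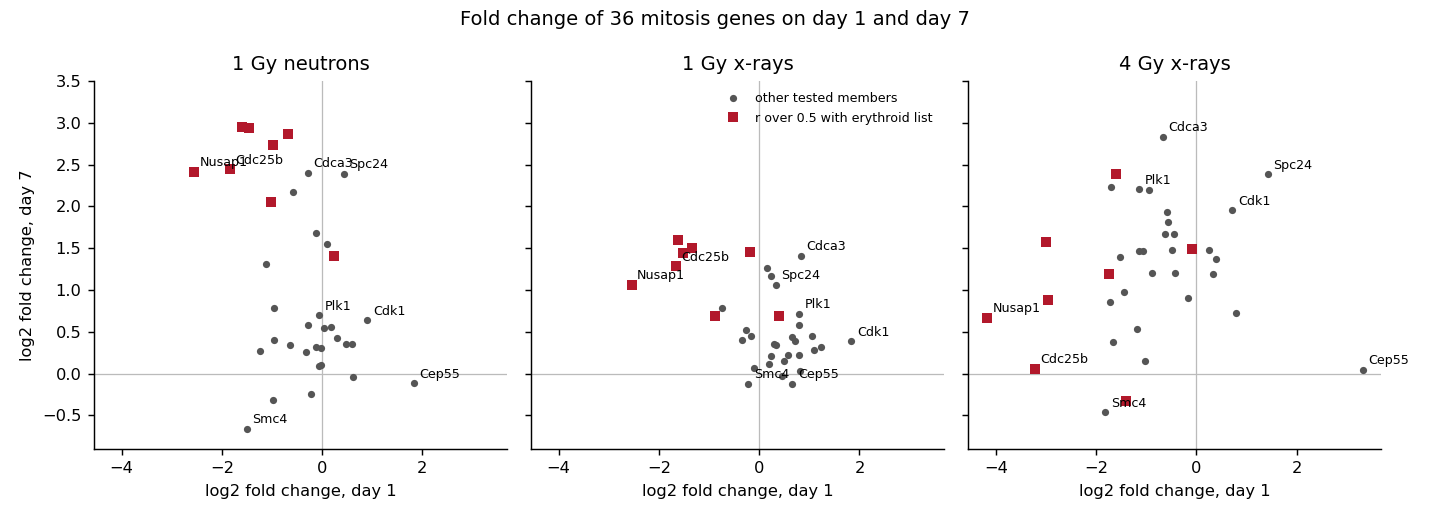
Log2 fold change against same-day controls at day 1 (horizontal axis) and day 7 (vertical axis) of the 36 tested members, 1 point each (squares for the 8 members with r over 0.5 with the erythroid list), in a panel for each of 1 Gy of neutrons, 1 Gy of x-rays and 4 Gy of x-rays. After 4 Gy of x-rays Nusap1 lies far left (-4.18), Cep55 far right (3.32) and near 0 at day 7 (0.05), and with spike-in centring the neutron panel would shift downward by day 7.

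Neutrons and x-rays of the same dose were compared directly. At day 1, 10 members were lower after 1 Gy of neutrons than after 1 Gy of x-rays and none was higher, 27.8% beside 9.05% of all genes (1.33% higher and 7.72% lower). The largest difference was that of Smc4, at 1.19 to 2.33 (median 1.75) after neutrons and 2.50 to 3.41 (median 3.07) after x-rays, without overlap (-1.28 ± 0.22, adjusted p = 0.00287). Mad2l1 (-1.18 ± 0.18), Ndc80 (-1.14 ± 0.15), Cdca3 (-1.13 ± 0.18) and Cdc20, the early activator of the anaphase-promoting complex (-0.99 ± 0.16), were also lower. With scan day as a block, with normexp or on the spike-in scale no member was called, at medians of -0.62, -0.34 and -0.15 against -0.52. At day 7, 5 members were higher after neutrons, 13.9% beside 23.0% of all genes (17.3% higher and 5.67% lower), and none was lower. These were Ccna2 (1.52 ± 0.23), Ccnb2 (1.41 ± 0.29), Pttg1 (1.36 ± 0.25), Nusap1 (1.35 ± 0.28) and Ube2c (1.35 ± 0.27). Without mouse 5 of the x-ray group 10 were higher, and on the spike-in scale 1 was lower.

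Against 4 Gy of x-rays, 1 Gy of neutrons gave no called member at day 1 by limma or the random variance test, with 22 at an unadjusted p below 0.05 and 0.0552% of all genes called. With slide as a random block, an alternative added after the data were seen, 22 members were called, 19 of them higher after neutrons. Each slide held only 1 of the 2 groups, the estimated correlation was -0.22, and a negative correlation makes the errors smaller. At day 7, 6 members were higher and 14 lower after neutrons, 55.6% beside 41.9% of all genes (31.0% higher and 10.9% lower). The 6 that were higher were Cdc25b (2.39 ± 0.27), Pttg1 (2.38 ± 0.24), Ube2c (2.06 ± 0.26), Nusap1 (1.74 ± 0.25), Fzr1 (1.53 ± 0.31) and Ccna2 (1.38 ± 0.22). Aurka, the Aurora A kinase, was lowest relative to x-rays (-1.71 ± 0.33), followed by the checkpoint kinase gene Bub1b (-1.57 ± 0.19), Plk1 and Anln (both -1.51), Kif20a (-1.50 ± 0.23), Prc1 (-1.38 ± 0.21) and Cdk1 (-1.31 ± 0.24). Bub1b was well above background on 55 of the 72 arrays and Kif20a on 65. As the neutron arrays of day 7 were dim, the differences of Bub1b and Kif20a may be rough. Plk1 lay between -0.39 and 0.36 (median 0.02) after neutrons and 1.04 and 1.85 after x-rays, without overlap. On the spike-in scale none was higher and 30 were lower, and with normexp none was called.

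Between the x-ray doses, 19 members were lower and 1 higher after 4 than after 1 Gy at day 1, 55.6% beside 17.6% of all genes (4.58% higher and 13% lower). Plk1 was lower by most (-1.94 ± 0.25) and Cep55 was the exception (2.66 ± 0.36). With scan day as a block none was called. At day 7 Spc24 alone was called, higher after 4 Gy (1.32 ± 0.28), 2.78% beside 9.54% of all genes (4.00% higher and 5.54% lower). Leaving out mouse 5 of the 1 Gy group gave 24 higher and 2 lower members.

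The members did not move as 1 block, and the level of red cell genes differed with some of them. A list of 23 erythroid and reticulocyte genes, such as Slc4a1 and Alas2, had a mean log2 level per mouse with group medians of 2.44 in the controls of day 1, 1.45 after 1 Gy of neutrons, 1.30 after 1 Gy of x-rays and 0.82 after 4 Gy of x-rays. At day 7 the medians were 2.70 in the controls, 5.09, 3.79 and 3.67. Of the 23 genes, 1 rose and 4 fell after 1 Gy of neutrons at day 1, 12 fell after 1 Gy of x-rays, and 2 rose and 14 fell after 4 Gy. Among all genes the shares higher and lower were 6.96% and 10.5%, 3.09% and 4.56%, and 16.5% and 18.6%, in that order. At day 7 20, 13 and 10 of the erythroid genes rose and none fell, relative to the median detected probe, and the median over all genes after 1 Gy of neutrons turned on the spike-in scale. Among all genes 25.1%, 3.29% and 9.06% rose at day 7.

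**Figure D4:**
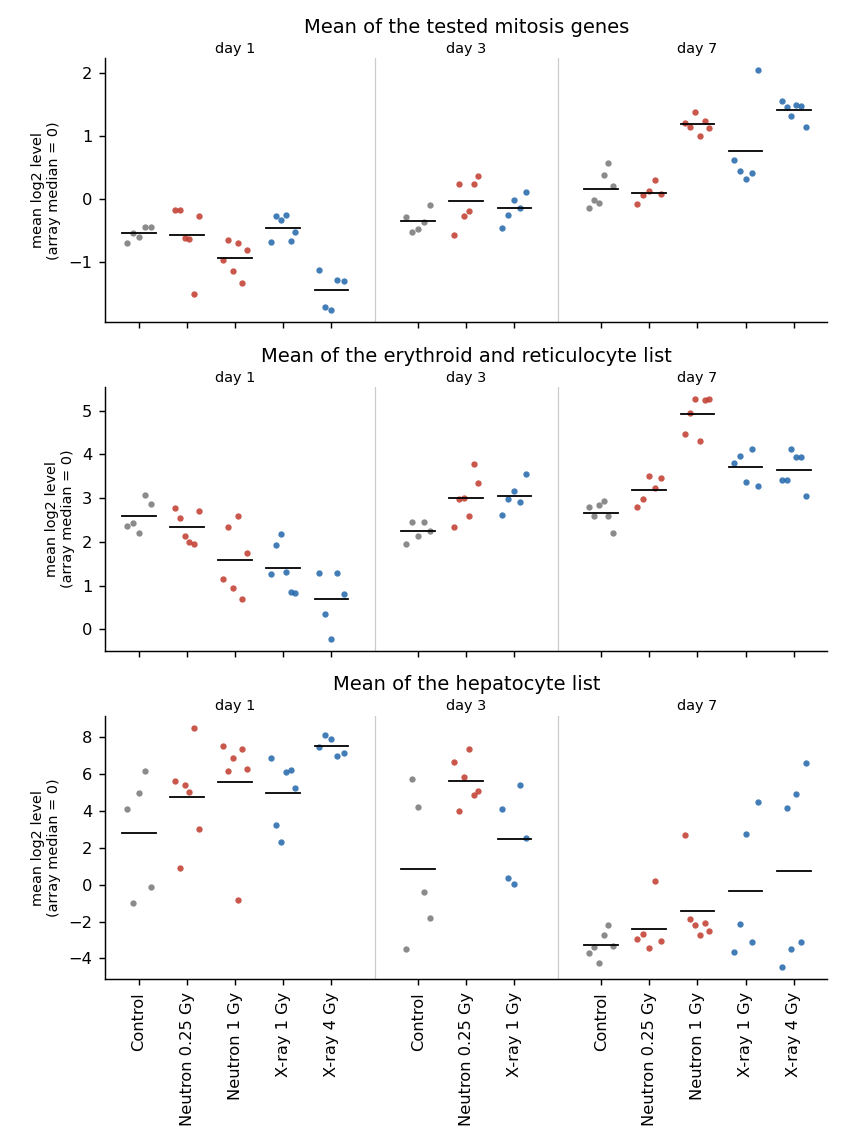
Mean log2 level per mouse of the 36 tested members, the 23 erythroid genes and the hepatocyte genes (vertical axes) by exposure and day, with controls in grey, neutrons in red, x-rays in blue and the group mean as a black line. The erythroid list is highest after 1 Gy of neutrons at day 7 (4.30 to 5.27, relative to the median detected probe), and the members are at 2.05 in 1 mouse after 1 Gy of x-rays at day 7.

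Each member was then set against the erythroid list over the 72 mice with the group means removed, in 36 relations. Nusap1 followed it most closely (r = 0.94, rho = 0.94, adjusted p = 5.14e-05 for both, the smallest that 100000 permutations within groups can give here, and r = 0.93 without the 2 farthest mice). Ube2c (r = 0.92), Cdc25b (0.89), Ccna2 (0.86), Pttg1 (0.77), Fzr1 (0.74), Ccnb2 (0.66) and Incenp, the scaffold of the passenger complex (0.52), were the other 7 over 0.5. For 21 members r was below 0.2 in size, among them Cdk1 (-0.08), Plk1 (-0.01), Cdc20 (0.08) and Aurka (0.02).

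The 8 members with r over 0.5 and the other 28 differed in what was called, more in some comparisons than in others. The split was made after the values were seen and is given with no test. After 1 Gy of x-rays at day 1, 5 of the 8 fell and none rose, while 8 of the 28 rose and none fell. Of all genes 3.09% rose and 4.56% fell there. On the same day both sets held more falls than rises with the other exposures of 1 Gy or more. With 1 Gy of neutrons, 2 of the 8 fell and none rose, and 5 of the 28 fell and 2 rose. All genes gave 6.96% higher and 10.5% lower. With 4 Gy of x-rays, 7 of the 8 fell and none rose, and 11 of the 28 fell and 2 rose. All genes gave 16.5% higher and 18.6% lower. After 1 Gy of neutrons at day 7 all 8 rose, and 6 of the 28 rose and 1 fell. In that comparison 25.1% of all genes rose and 13.3% fell. After 1 Gy of x-rays at day 7, 5 of the 8 rose and none of the 28 was called, beside 3.29% of all genes higher. After 4 Gy of x-rays at day 7, 4 of the 8 and 22 of the 28 rose, beside 9.06% of all genes. In the direct comparison of 1 Gy of neutrons with 4 Gy of x-rays at day 7 the 6 higher members were among the 8 and the 14 lower members among the 28. There 31.0% of all genes were higher and 10.9% lower. Of the promoters at hand, 3 of 6 among the 8 and 19 of 24 among the 28 held a CHR.

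With the erythroid list level as a covariate, an alternative added after the data were seen, 0 members rose and 3 fell after 1 Gy of neutrons at day 1, 4 rose and 1 fell after 1 Gy of x-rays and 1 fell after 4 Gy of x-rays. At day 7 no member was called after either 1 Gy exposure, and 13 rose and 1 fell after 4 Gy of x-rays. The list level did not overlap between irradiated and control mice at day 7 after 1 Gy of neutrons (4.30 to 5.27 against 2.20 to 2.92) and either x-ray dose, nor at day 1 after either x-ray dose, so in these 5 comparisons the covariate runs with the exposure in part. After neutrons at day 7 the standard error of Ccna2 grew from 0.26 to 0.79. For Nusap1 the difference at day 7 after neutrons went from 2.41 to -0.16 (SE 0.52), and for Cdca3 after 4 Gy of x-rays from 2.84 to 2.74. The part of red cell number in these results was not tested beyond this covariate.

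**Figure D5:**
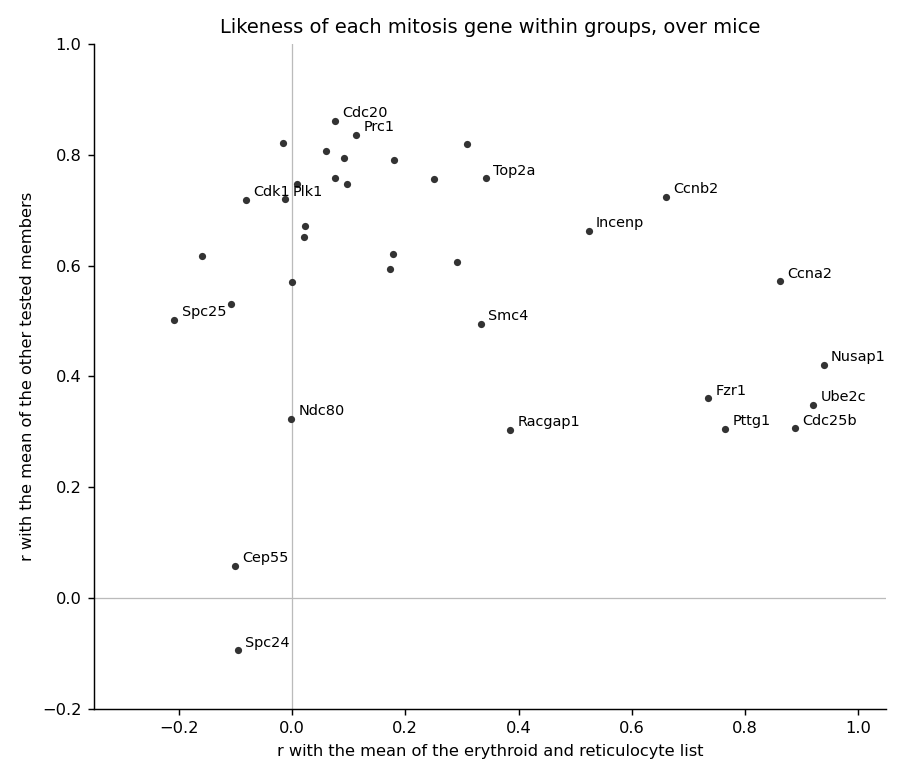
Correlation of each tested member with the erythroid list (horizontal axis) and with the mean of the other members (vertical axis), over 72 mice with group means removed, 1 point per gene. Nusap1, Ube2c, Cdc25b and Ccna2 lie far right, Cdc20 (0.86) and Prc1 (0.84) at the top, and Cep55 (0.06) and Spc24 (-0.09) at the bottom.

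Among themselves, with group means removed, the members most like the mean of the others were Cdc20 (r = 0.86) and Prc1 (r = 0.84), and the least like were Spc24 (r = -0.09) and Cep55 (r = 0.06). These points share the library and its centring. Without mouse 5 of the 1 Gy x-ray group at day 7, Cdc20 was at 0.80 and Spc24 at -0.24. Cep55 was well above background on 62 of the 72 arrays, and on none of the 6 after 1 Gy of neutrons at day 7. At day 1 it was above background on all 11 irradiated arrays of the 1 Gy neutron and 4 Gy x-ray groups. With normexp its difference went from 1.83 to 0.48 (adjusted p = 0.558 by limma) after neutrons and from 3.32 to 1.52 (adjusted p = 0.0154) after 4 Gy.

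The 12 members that were not tested are Cdc25c, Aurkb, Bub1, Ttk, Nuf2, Cenpf, Kif11, Kif2c, Kif4, Ncapg and Espl1, which did not pass the filter on dim spots, and Kif23. Espl1 was at the limit of that filter, well above background on 53 of the 72 arrays. Without the filters several of them differed at day 7 after 4 Gy of x-rays. Kif11, the motor that separates the spindle poles, was 2.72 ± 0.39 higher, Nuf2, a partner of Ndc80, 2.39 ± 0.40, the chromokinesin Kif4 2.19 ± 0.30 and the checkpoint kinase gene Bub1 1.77 ± 0.30. These 4 were well above background in all 6 irradiated mice but in 3, 2, 3 and 2 of the 6 controls, so the differences are rough. Kif23, a midzone motor that was bright enough, was 1.26 ± 0.15 higher.

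Other mitosis genes, a list of 103 of which 47 could be tested, are given for comparison. At day 1, 2 rose and 8 fell after 1 Gy of neutrons, 5 rose and 1 fell after 1 Gy of x-rays, and 4 rose and 15 fell after 4 Gy of x-rays. The shares of all genes that rose and fell were 6.96% and 10.5%, 3.09% and 4.56%, and 16.5% and 18.6%, in that order. Psrc1, a spindle protein gene that is also a known p53 target, rose most on that day in all 3 (2.67 ± 0.22, 2.42 ± 0.17 and 2.38 ± 0.23). Pkmyt1, which encodes an inhibitory kinase of Cdk1, fell most after 1 Gy of neutrons (-1.51 ± 0.21) and 4 Gy of x-rays (-2.36 ± 0.29). At day 7, relative to the median detected probe, 22 rose and 2 fell after 1 Gy of neutrons, with Cdc27, a subunit of the anaphase-promoting complex, highest (3.84 ± 0.28), 5 rose after 1 Gy of x-rays, and 20 rose and 1 fell after 4 Gy of x-rays, with the proliferation marker Mki67 highest (3.14 ± 0.31). The same shares of all genes at day 7 were 25.1% and 13.3%, 3.29% and 0.709%, and 9.06% and 8.50%. At day 3, 3 rose after 1 Gy of x-rays, beside 1.58% of all genes higher.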

How the data were processed

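RNA of 72 mice was hybridised to one-colour Agilent mouse arrays and scanned with Agilent Feature Extraction 12.0.2. The deposited files hold background-subtracted intensity values per spot, made by the authors, of which the processed signal was used. The deposited value table of log2 values was not a main source: only 12 of its 72 columns followed their own array best, 60 followed another, and it was used for 1 check. Of 44397 spots, 1377 control spots and spots marked as outliers were dropped, spots of a probe were averaged, and log2 values were centred on the array's median over detected probes. Probes stayed if dim or outlying spots made up under 25% over the 56 arrays of days 1 and 7 (19808 probes) and if over 20% of arrays differed 1.5-fold from the probe's median (12556 probes, 10863 genes, brightest probe each). A total of 28330 probes were named through an accession.

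Tests used limma 3.58.1 in R 4.3.3 (statmod 1.5.0), 2-sided, with the groups compared only, p under 0.001 and false discovery rate under 0.05 over all genes. Python 3.11.15 with pandas 2.3.3, numpy 2.4.6, scipy 1.17.1 and matplotlib 3.10.9 made tables and figures. Simulated data held 200 genes changed by 2 on the log2 scale, up or down. Of these 184 were recovered with 8 false calls at 5 against 6 mice, and 188 with 12 at 6 against 6. Smaller changes were not simulated. The number of arrays limits precision. Replicate numbers did not pair the samples (correlations of deviations from -0.55 to 0.64). Members and lists were chosen with earlier results of these data known. Members named by rule were the 5 genes of the study, those with the largest rise and fall, and those called against the majority. The rule also took those called on both days and those most and least like the others. Further members, such as Ndc80, Ccnb1, Tpx2 and Bub1b, were named with values outside this rule. Alternatives are given in the closing section. Slide as a block and the erythroid covariate were added after the data were seen.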

Additional observations from a re-analysis of the deposited data

Results flagged for a closer look

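Of 156 sets of values in groups of 4 to 10 mice, 14 held a mouse far from the rest, while chance gives about 1 in 20. Mouse 5 after 1 Gy of x-rays at day 7 was high in the mean of the tested members (2.05), Cdk1 (0.89), Plk1 (2.31) and Cdc20 (2.62). Mouse 5 after 0.25 Gy of neutrons at day 1 was low in the mean of the tested members (-1.51), Plk1 (-3.08), Cdc20 (-2.16) and Smc4 (1.09). Mouse 1 after 1 Gy of x-rays at day 3 was low in Cdk1 (-4.74) and Cdc20 (-1.39) but high in Plk1 (0.72). Among the controls of day 3, mouse 1 was high in Cdk1 (-2.03), and mouse 5 in Cep55 (-2.80) and Spc24 (-2.95).

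The effect of exposure differed between days 1 and 7, by the test of that difference, in 18 members after 1 Gy of neutrons, 7 after 1 Gy of x-rays and 28 after 4 Gy of x-rays.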

How the results depend on the processing

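The random variance test moved no count of members by over 1.5 times. Normexp background correction moved 15 of 20. It called 3 (1 Gy of neutrons), 1 (1 Gy of x-rays, a lower one) and 7 (4 Gy of x-rays) members at day 1, 0 and 0 at day 3, and 5, 2 and 6 at day 7. Between 1 Gy of neutrons and 1 Gy of x-rays it called 0 at day 1 and 2 at day 7, between neutrons and 4 Gy of x-rays 0 at day 7, between x-ray doses 2 at day 1 and 1 (lower) at day 7, and for the day differences 6 after neutrons and 9 after 4 Gy of x-rays. Of 32 single results 20 lost their call with normexp and 1 turned, Cdk1 after 1 Gy of neutrons at day 1 (-0.0013). The 32 held no member named only for being called on both days, such as Aurka, Plk1 or Top2a after 4 Gy of x-rays. Spike-in centring called 9 (4 higher, 5 lower) after 1 Gy of x-rays at day 1, 0 and 0 at day 3, 10 after 0.25 Gy of neutrons at day 7, 16 (all lower) after 1 Gy of neutrons and 0 after 1 Gy of x-rays. Between exposures it called 0 at day 1 and 1 (lower) at day 7 for 1 Gy of neutrons against 1 Gy of x-rays, and 9 at day 1 and 26 at day 7 between x-ray doses. Its day differences were 7 after 0.25 Gy and 19 (4 upward, 15 downward) after 1 Gy of neutrons.

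The day 3 calls fell to 0 in both comparisons with the 75th percentile, no filters and the hepatocyte or erythroid covariate, to 0 for 0.25 Gy of neutrons with scan day or slide, and to 0 for 1 Gy of x-rays with quantile normalization, while scan day as a random block gave 2. Scan day as a block gave 0 after 1 Gy of x-rays at day 1, 5 after 1 Gy of neutrons at day 7, 0 and 2 for neutrons against 1 Gy of x-rays at days 1 and 7, 11 against 4 Gy of x-rays at day 7, 0 and 0 between x-ray doses and 11 for the neutron day difference. Slide as a block gave 8 after 1 Gy of x-rays at day 1, 22 for neutrons against 4 Gy of x-rays at day 1 and 0 between x-ray doses at day 7. Quantile normalization gave 2 for neutrons against 1 Gy of x-rays at day 7 and 1 for the 0.25 Gy day difference, and no filters 2 between x-ray doses at day 7. The hepatocyte covariate gave 5 and 7 after 1 Gy of neutrons and 4 Gy of x-rays at day 1, and 10 and 3 (1 higher, 2 lower) between x-ray doses at days 1 and 7. The erythroid covariate gave 3, 5 and 1 at day 1 and 0, 0 and 14 at day 7, and turned Nusap1 after 1 Gy of neutrons at day 7 to -0.16. The cause of these changes was not tested.

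With the replicate number as a block, although the numbers do not pair the mice, the counts were 3, 6 and 13 at day 1, 0 and 0 at day 3, 5 and 0 for neutrons against 1 Gy of x-rays at days 1 and 7, and 8 and 0 between x-ray doses. The block moved no other count by over 1.5 times.

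Leaving out single mice, counts ran from 5 to 10 after 1 Gy of neutrons at day 1 (5 without control 2, 3 or 5 or irradiated mouse 1), 0 to 4 after 0.25 Gy of neutrons at day 3 (0 without irradiated 3 to 6 or control 1, 3, 4 or 5, and 4 without irradiated mouse 1), 0 to 2 after 1 Gy of x-rays at day 3 (0 without any of mice 2 to 5 of either group, 2 without irradiated mouse 1) and 0 to 1 after 0.25 Gy of neutrons at day 7 (1 without irradiated mouse 1). For neutrons against 1 Gy of x-rays at day 7 they ran from 3 (without x-ray mouse 3) to 10 (without x-ray mouse 5), with 8 without neutron mouse 4. Between x-ray doses at day 7 they ran from 0 (without 1 Gy mouse 2, 3 or 4 or 4 Gy mouse 4, 5 or 6) to 26 (without 1 Gy mouse 5), with 1 lower without 4 Gy mouse 3. Day differences ran from 0 to 1 after 0.25 Gy (1 without mouse 5 of day 1 or mouse 1 of day 7) and 7 to 13 after 1 Gy of x-rays (13 without mouse 5 of day 7).

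Of 32 single results, 9 lost their call without 1 mouse. They were Cdk1 (0.84 to 0.92 in those fits) and Cdc25b (-1.89 to -1.67) after 1 Gy of neutrons and Ube2c (-1.64 to -1.47) after 1 Gy of x-rays at day 1, Spc24 after 4 Gy of x-rays at day 1 (1.24 to 1.45) and 0.25 Gy of neutrons at day 3 (0.95 to 1.13), Cdca3 after 1 Gy of x-rays at day 3 (0.99 to 1.11), and at day 7 Smc4 after 1 Gy of neutrons (-0.68 to -0.61), Cdc25b after 1 Gy of x-rays (1.10 to 1.30) and Fzr1 after 4 Gy of x-rays (1.03 to 1.22). Each was lost in 6 to 8 of 10 to 12 fits, control and irradiated mice alike, and no direction turned. Members named only for being called on both days, such as Aurka and Plk1 after 4 Gy of x-rays, were not among the 32.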
